A study of Mus musculus with 36 samples.

Results

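The 9 genes described here encode voltage-gated potassium channel subunits that repolarize the heart muscle cell: Kcna4, Kcna5, Kcnd2, Kcnd3, Kcnip2, Kcnv2, Kcnh2, Kcnq1 and Kcne1. They were named by gene symbol for their role, with earlier results of these data known, out of 55291 symbols in the files, and all 9 were among the 19231 genes with enough reads to be tested. The data are RNA-seq libraries of CUG960 hearts, 36 in all, with 3 per cohort from left ventricle and 3 from atria. CUG960 mice are bitransgenic, homozygous for TREDT960I and hemizygous for MHCrtTA: interrupted CUG repeats in a human DMPK transcript sit behind a tetracycline-responsive promoter, and the transactivator is made under the α-MHC promoter, so that the repeat RNA is made in cardiomyocytes when doxycycline is eaten. All mice of all 6 cohorts carried both transgenes and were 21 weeks old at collection. The +dox cohort ate doxycycline chow from postnatal day 1, the –dox cohort never did, and the +/–dox cohort was taken off it at 9 weeks. Mice of 3 further cohorts were kept on doxycycline and injected at 9 weeks with AAV9 carrying tagged human MBNL1 (MBNL1 cohort), MBNL2 (MBNL2 cohort) or both (MBNL1+MBNL2 cohort) under the human TNNT2 promoter. Libraries of mice with the transactivator alone or with a control AAV were not analysed here, so an effect of doxycycline or of the vector itself cannot be told apart from that of the repeat RNA or of MBNL.

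A cardiac action potential ends when potassium leaves the cell through channels that open on depolarization. In the mouse the fast transient outward current, made by the Kv4 pore subunits Kcnd2 and Kcnd3 with the accessory subunit KChIP2 (Kcnip2), does much of this work, the slow transient outward current runs through Kv1.4 (Kcna4), and Kv1.5 (Kcna5) carries an ultrarapid delayed rectifier current. The ERG channel (Kcnh2) and the KvLQT1 channel (Kcnq1) with its β subunit minK (Kcne1) carry the rapid and slow delayed rectifiers that dominate in larger mammals, and their human counterparts are long-QT genes. Kcnv2 encodes Kv8.2, a subunit that is silent alone and alters the Kv2 channels that it joins. MBNL proteins bind RNA at YGCY motifs (Y being C or U) and are held by expanded CUG repeats.

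The depth of the libraries was between 55.03 and 97.09 M expected counts, and no pair of libraries held identical values. Ventricular MBNL1 replicate 1 stood apart with 16885 gene symbols above 0, where the next lowest ventricular library had 20578 and the highest 24041, and the Kcna4, Kcnv2 and Kcne1 results for MBNL1 ventricles are also given without it. Library names began with 53 (replicates 1 and 2) or 56 (replicate 3), except that all MBNL1+MBNL2 libraries began with 56. Xist was above 10 TPM in replicate 3 of every group except the MBNL1+MBNL2 groups, so sex, replicate 3 and the library set cannot be told apart. Ventricular markers summed to between 38.4 and 805 TPM in the atria, at most 3.36% of their ventricular mean, and that highest sum was in –dox replicate 3. Endothelial markers moved with the cohorts in the ventricle, where their sum was 175 to 179 TPM in +dox, 216 to 277 TPM in –dox and 226 to 246 TPM in +/–dox libraries, and all 5 of them passed the test as higher in both of the latter. Of all tested genes 20.9% and 21.8% passed there in either direction. The 7 cardiomyocyte markers summed to between 20710 and 21411 TPM in +dox ventricles, between 21555 and 24980 TPM in –dox and between 25404 and 27321 TPM in +/–dox ventricles. Of these markers 2 passed as higher in –dox and 5 in +/–dox ventricles. In the atria, atrial cardiomyocyte markers summed to between 31212 and 33511 TPM in +dox, 43316 and 47485 TPM in –dox and 44757 and 49450 TPM in +/–dox libraries, with 0 of 4 passing the test, and 3 of 6 fibroblast and 3 of 5 endothelial markers passed as higher in –dox atria. There 15.9% of all tested genes passed in either direction. In whole tissue, fewer cells of a type and less RNA per cell cannot be told apart, and the part of these markers in the results below was not tested.

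Levels are given as TPM, which corrects for transcript length and so allows genes to be compared, and changes between cohorts as log2 fold changes of normalized counts from edgeR's quasi-likelihood test. A gene passed at an adjusted p below 0.05 and was called where it also changed at least 1.5-fold. In –dox ventricles the order of the mean levels (SD, n = 3) was Kcnip2 at 52.8 ± 7.02 TPM, Kcnh2 at 30.9 ± 4.10, Kcnq1 at 19.9 ± 1.92, Kcnd2 at 10.1 ± 5.54, Kcna5 at 9.67 ± 1.09, Kcnv2 at 7.27 ± 1.15, Kcnd3 at 4.39 ± 0.391, Kcna4 at 0.407 ± 0.156 and Kcne1 at 0.233 ± 0.311 TPM. Kcnd2 libraries overlapped those of both Kcna5 and Kcnv2, Kcna4 overlapped Kcne1, and the other neighbours were apart. In –dox atria the order was Kcnh2 at 92.9 ± 6.91 TPM, Kcnq1 at 44.6 ± 1.76, Kcnip2 at 17.7 ± 4.19, Kcnd2 at 10.4 ± 1.68, Kcnd3 at 8.08 ± 0.324, Kcna5 at 5.05 ± 0.615, Kcnv2 at 3.40 ± 0.299, Kcna4 at 2.09 ± 0.384 and Kcne1 at 0.127 ± 0.124 TPM, and no neighbours overlapped. With the repeat RNA on, the bottom of the ventricular order was rearranged: in +dox libraries Kcna4 (2.08 ± 0.231 TPM) and Kcne1 (1.88 ± 0.895 TPM), which overlapped each other, stood above Kcnv2 (1.15 ± 0.548 TPM), which overlapped Kcne1 and not Kcna4. The plot of levels by library shows every value.

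**Figure D1:**
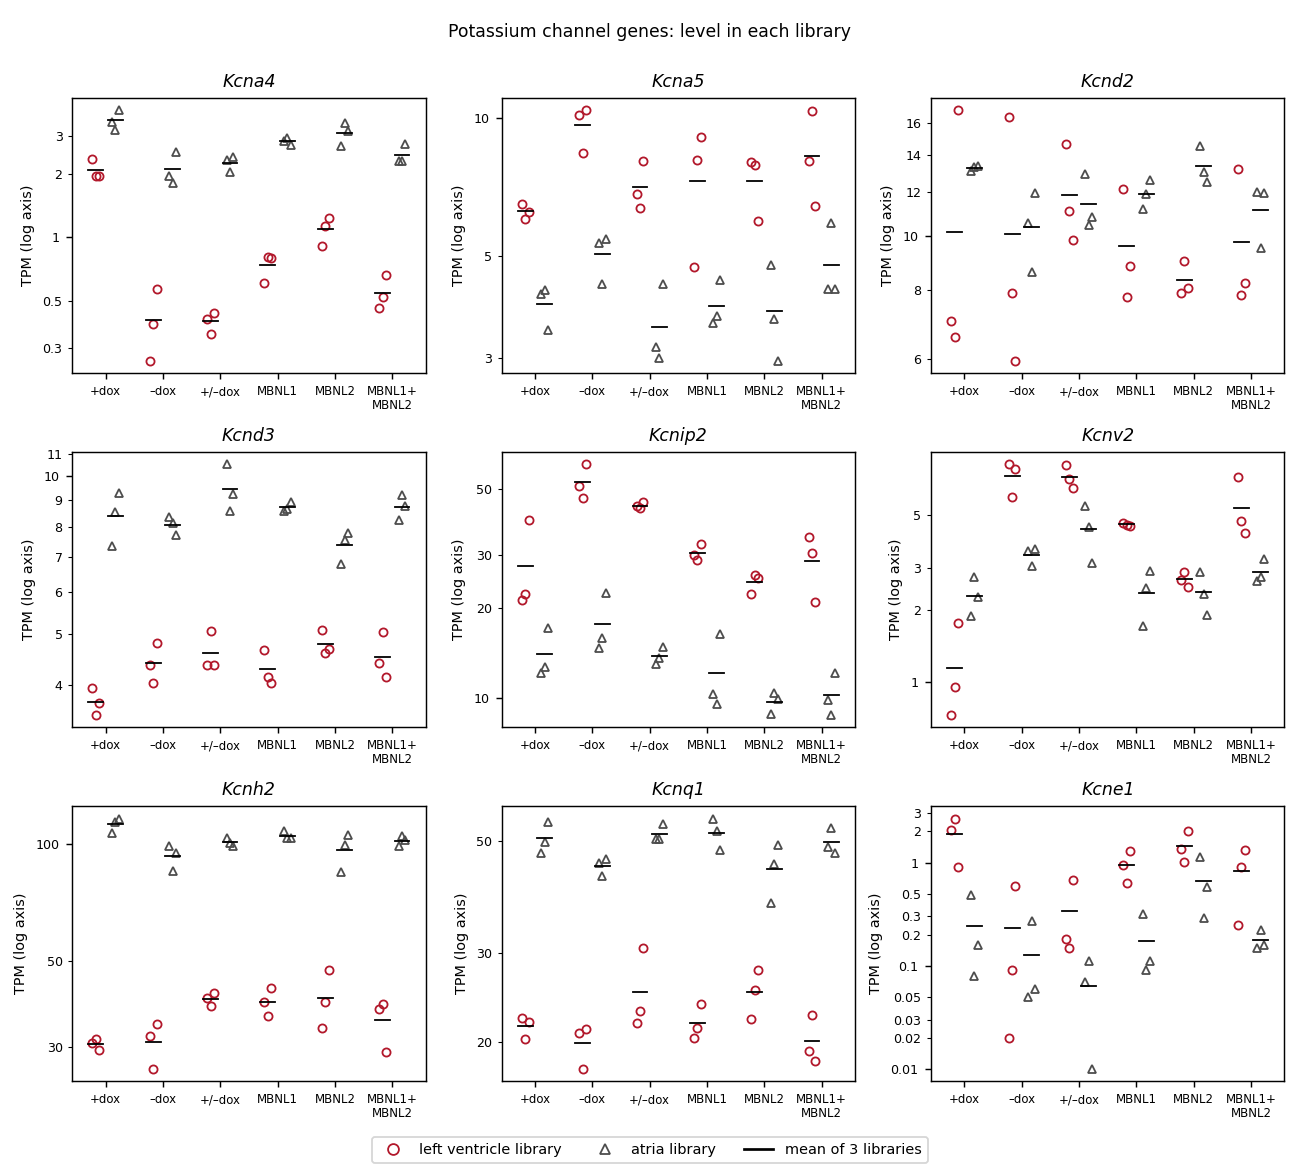
Level of each of the 9 genes in the 36 libraries, as TPM on a log axis that differs between panels, by cohort. Circles are left ventricle libraries, triangles are atria libraries and lines are means of 3 libraries; ventricular Kcna4 is highest and ventricular Kcnv2 lowest in the +dox cohort.

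The first question was what the repeat RNA did to these genes, read from –dox and +/–dox mice against +dox mice. Both comparisons use the same 3 +dox libraries of a chamber. In the ventricle, 5 of the 9 genes were called between –dox and +dox mice (7.6% of all tested genes were) and 4 of 9 between +/–dox and +dox mice (6.6% of all tested genes). Kcna4 and Kcne1 were higher, and Kcnv2 and Kcnip2 lower, with the repeat RNA on, in both comparisons, and Kcna5 was lower in the first. In the atria 1 of the 9 was called for –dox mice (5.23% of all tested genes) and 3 for +/–dox mice (3.99%). The median log2 change of the 9 genes against +dox was 0.07 in –dox ventricles, beside 0.01 over all genes tested, and 0.24 in +/–dox ventricles, beside 0.001, with called genes on both sides in each.

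Kcna4, the pore subunit of the slow transient outward current, is a gene of 2 exons at chr2:107290639-107298502 (+ strand, GRCm38, GENCODE M21), and its coding sequence lies in the second. In +dox ventricles it was at 2.35, 1.95 and 1.95 TPM, against 0.26, 0.39 and 0.57 TPM in –dox and 0.41, 0.35 and 0.44 TPM in +/–dox ventricles. The +dox libraries were all above those of both other cohorts. The difference was 5.06-fold for –dox (log2 change -2.34, SE 0.18, edgeR adjusted p = 7.84e-11) and 5.22-fold for +/–dox mice (log2 change -2.39, SE 0.18, adjusted p = 4.58e-11), and it was -2.66 and -2.49 within the libraries whose names begin with 53. In the atria, Kcna4 was at 3.52, 3.22 and 3.98 TPM in +dox, 1.94, 1.81 and 2.53 TPM in –dox and 2.31, 2.04 and 2.40 TPM in +/–dox libraries. The groups again did not overlap, yet the change was smaller, 1.67-fold for –dox (log2 change -0.74, SE 0.17, adjusted p = 0.00206) and 1.53-fold for +/–dox mice (log2 change -0.61, SE 0.17, adjusted p = 0.0134). The atrial +/–dox call was lost without +dox replicate 1 (adjusted p = 0.0625), and without +dox replicate 3 the change was -0.58, short of the fold cutoff.

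The sequence of the Kcna4 message is shown because it fell when MBNL was supplied (below) and MBNL binds YGCY. Over the transcript with the longest coding sequence, TGCT or TGCC, with CGCT or CGCC, read on the transcript strand as DNA letters, occurred 13.6 times per kb, at percentile 33.0 of 14969 tested transcripts (median 15.6 per kb). The 30 bases richest in them lie in the coding part of exon 2 at chr2:107295045-107295074 (+ strand), and 49.1% of transcripts have a window with as many, 4 matches. Kcna4 is followed by the corresponding windows of Kcnv2, in the coding part of exon 1 of 2 at chr19:27323358-27323387 (+ strand) with 4 matches, and of Kcnip2, in the 5′ untranslated part of exon 1 of 10 at chr19:45816006-45816035 (– strand) with 5 matches, as many as 17.8% of transcripts have. Capitals mark the matches, which may overlap by a base.
Kcna4: TGCTGCTgtcgcagcTGCCacggcTGCTgt
Kcnv2: CGCCaCGCTGCTgtcgcatcTGCTtcgagg
Kcnip2: CGCTGCCttcTGCTcCGCTctcactTGCTg
Neither Kcna4 nor Kcnv2 (14.5 per kb, percentile 40.9) was dense in these letters, whereas Kcnh2 (24.6 per kb, percentile 93.5), Kcnip2 (21.7 per kb, percentile 86.0) and Kcnd3 (20.2 per kb, percentile 80.4) were. Kcnd2 was the lowest of the 9 at 13.4 per kb, and the remaining genes lay between, with Kcna5 at 17.1, Kcne1 at 17.3 and Kcnq1 at 19.1 per kb. Introns were not counted, and the coding share of the transcripts differed. It was 3489 of 4221 bases in Kcnh2, 1965 of 4792 in Kcna4 and 813 of 2395 in Kcnip2. A match is a description of the letters and not a binding site.

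Kcnv2, the silent Kv8.2 subunit at chr19:27322588-27337179 (+ strand), ran the other way. It was at 0.73, 0.95 and 1.77 TPM in +dox ventricles, at 8.11, 5.96 and 7.73 TPM in –dox and at 8.07, 7.04 and 6.45 TPM in +/–dox ventricles. The highest +dox library was below every library of the other cohorts. It was 6.59-fold higher in –dox (log2 change 2.72, SE 0.26, edgeR adjusted p = 2.68e-08) and 6.41-fold higher in +/–dox mice (log2 change 2.68, SE 0.26, adjusted p = 4.46e-08) than in +dox mice, and 3.09 and 3.16 on the log2 scale within the libraries beginning with 53. In the atria it was at 1.89, 2.74 and 2.27 TPM in +dox, 3.54, 3.06 and 3.61 TPM in –dox, and 5.44, 4.46 and 3.16 TPM in +/–dox libraries. There it rose 1.98-fold in +/–dox mice (log2 change 0.98, SE 0.25, adjusted p = 0.00862), and the –dox change of 0.60 (95% interval 0.09 to 1.11) did not pass (adjusted p = 0.103). The atrial +/–dox call was lost without +dox replicate 1 (adjusted p = 0.0619) or +/–dox replicate 1 (adjusted p = 0.0629).

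Of the Kv4 complex, the accessory subunit was called in both ventricular comparisons and the pore subunits in neither. Kcnip2 was at 21.21, 22.24 and 39.51 TPM in +dox, 51.14, 46.69 and 60.44 TPM in –dox and 43.80, 43.20 and 45.22 TPM in +/–dox ventricles. The groups did not overlap, although +dox replicate 3 came close to the +/–dox libraries. Kcnip2 was 2.23-fold higher in –dox (log2 change 1.16, SE 0.19, edgeR adjusted p = 5.22e-05) and 1.86-fold higher in +/–dox than in +dox ventricles (log2 change 0.90, SE 0.19, adjusted p = 0.000938), and 1.35 and 1.16 on the log2 scale within the libraries beginning with 53. Kcnd2 (chr6:21215503-21729805, + strand) was at 7.03, 6.56 and 16.83 TPM in +dox and at 16.37, 7.88 and 5.95 TPM in –dox ventricles, with SD of 5.80 and 5.54 TPM. Its change was 0.07 for –dox (95% interval -0.57 to 0.72) and 0.27 for +/–dox (95% interval -0.37 to 0.91), and both intervals include a rise of 1.5-fold. Without +dox replicate 3, its high library, the changes were 0.57 (adjusted p = 0.227) and 0.76 (adjusted p = 0.0945). Within the libraries beginning with 53 they were 0.87 (adjusted p = 0.0647) and 0.93 (adjusted p = 0.0496), the latter being a call. Kcnd3 (chr3:105452330-105674002, + strand) was at 3.94, 3.50 and 3.68 TPM in +dox and 4.36, 4.02 and 4.80 TPM in –dox ventricles, apart by a small step of 1.19-fold that passed the test and not the fold cutoff (log2 change 0.25, SE 0.09, adjusted p = 0.0481).

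In the atria no Kv4 gene was called in either comparison. Kcnip2 was at 12.16, 12.69 and 17.16 TPM in +dox, 14.73, 15.85 and 22.49 TPM in –dox and 13, 13.57 and 14.86 TPM in +/–dox atria, where libraries overlapped between +dox and +/–dox. The –dox rise of 1.49-fold passed the test (log2 change 0.58, SE 0.19, edgeR adjusted p = 0.0361). Without –dox replicate 3, the atrial library with ventricular markers at 3.36% of the ventricular mean, it was 0.36 (adjusted p = 0.271), and within the libraries beginning with 53, which also leave that library out, it was 0.51 (adjusted p = 0.000455). Atrial Kcnd2 and Kcnd3 changed by -0.32 and -0.08 in –dox mice, and neither passed. The promoters of Kcna4 and Kcnip2 are shown because these genes moved in opposite directions in the ventricle. RefSeq promoters were at hand for 6 of the 9 genes, and the 250 bases before the start are printed with CANNTG and GGGCGG, or its reverse complement, in capitals. The Kcna4 promoter, at chr2:107290339-107290588 (+ strand, GRCm38.p6), has 65.2% G and C, 3 CANNTG and 1 GGGCGG, and the Kcnip2 promoter, at chr19:45816064-45816313 (– strand), has 66.8% G and C, 1 CANNTG and 2 GGGCGG.
Kcna4: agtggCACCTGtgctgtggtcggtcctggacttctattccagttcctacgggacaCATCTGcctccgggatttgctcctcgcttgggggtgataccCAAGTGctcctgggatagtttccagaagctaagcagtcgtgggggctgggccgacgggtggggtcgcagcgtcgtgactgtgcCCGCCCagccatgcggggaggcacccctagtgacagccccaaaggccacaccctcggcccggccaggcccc
Kcnip2: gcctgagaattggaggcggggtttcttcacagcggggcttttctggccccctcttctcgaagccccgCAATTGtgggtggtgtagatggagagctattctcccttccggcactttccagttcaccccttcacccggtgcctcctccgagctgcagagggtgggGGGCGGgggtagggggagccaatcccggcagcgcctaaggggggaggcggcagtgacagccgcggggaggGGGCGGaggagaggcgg
Both strands were searched over 32851 promoters of this length, of which 66.2% hold CANNTG (the E-box letters) and 32.7% hold GGGCGG (the GC box). Neither promoter holds TATAAA, which 12.4% do, or ACANNTGT, which 6.3% do.

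Kcna5, the pore subunit Kv1.5 in a single exon at chr6:126532551-126535412 (– strand), was at 6.51, 6.03 and 6.25 TPM in +dox, 10.19, 8.41 and 10.40 TPM in –dox and 6.84, 6.36 and 8.06 TPM in +/–dox ventricles. The –dox libraries were all above the others. It was 1.58-fold higher in –dox than in +dox ventricles (log2 change 0.66, SE 0.19, edgeR adjusted p = 0.0115), a call that was lost without –dox replicate 1 (0.59, adjusted p = 0.0551). In +/–dox ventricles the change was 0.18 (95% interval -0.20 to 0.56). Atrial Kcna5 was at 4.14, 4.22 and 3.45 TPM in +dox and 5.34, 4.34 and 5.46 TPM in –dox libraries, which did not overlap, and its change of 0.38 did not pass (adjusted p = 0.183).

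Kcne1, minK, had the widest standard errors of the 9 genes in these comparisons and few counts. Its expected counts were 125, 160 and 47 in +dox, 4, 13 and 26 in –dox and 16, 11 and 29 in +/–dox ventricles. The groups did not overlap, and the replicates of a group differed severalfold. Kcne1 was 5.30-fold lower in –dox (log2 change -2.41, SE 0.62, edgeR adjusted p = 0.0052) and 4.26-fold lower in +/–dox than in +dox ventricles (log2 change -2.09, SE 0.61, adjusted p = 0.012). Pooled over libraries the counts were 332 in +dox and 43 in –dox, a ratio of +dox to –dox, scaled to library size, of 5.72 with a 95% counting interval of 4.16 to 8.05 that leaves out the spread between libraries. The –dox change was -3.30 without –dox replicate 3 and -3.59 within the libraries beginning with 53, and the +/–dox call was lost without +dox replicate 2 (adjusted p = 0.0546), +/–dox replicate 1 (0.0588) or +/–dox replicate 2 (0.0635).

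In the atria Kcne1 counts were 18, 12 and 19 in +dox, 3, 8 and 6 in –dox and 1, 2 and 1 in +/–dox libraries. The fall in +/–dox atria was called (log2 change -3.24, SE 0.87, edgeR adjusted p = 0.0112) on 4 counts against 49, a ratio of +dox to +/–dox of 10.03 with a 95% counting interval of 3.68 to 38.3, and it was lost without +/–dox replicate 3 (adjusted p = 0.0636). Markers of sinoatrial and conduction cells were lower in sum in both cohorts, at 16.6 to 20.3 TPM in +dox, 5.82 to 11.1 TPM in +/–dox and 7.39 to 15.9 TPM in –dox atria. Of these markers 1 of 5 was called lower in +/–dox and 1 of 5 higher in –dox atria, beside 3.99% and 5.23% of all tested genes. Their median log2 change in –dox atria was 0.15. The part of such cells was not tested. The –dox change of -1.40 (95% interval -2.82 to 0.02) did not pass.

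The ERG and KvLQT1 pore genes were not called in these comparisons. Kcnh2 (chr5:24319589-24351604, – strand) was at 30.68, 31.43 and 29.42 TPM in +dox, 32.01, 26.31 and 34.26 TPM in –dox and 39.97, 38.14 and 41.35 TPM in +/–dox ventricles. It was 1.3-fold higher in +/–dox ventricles (log2 change 0.38, SE 0.09, edgeR adjusted p = 0.00413), short of the fold cutoff, and its –dox change was 0.04 (95% interval -0.15 to 0.23). Kcnq1 (chr7:143106362-143427042, + strand) was at 22.29, 20.22 and 21.88 TPM in +dox and 20.77, 17.65 and 21.15 TPM in –dox ventricles, a change of -0.07 (95% interval -0.26 to 0.11). In +/–dox ventricles it was at 21.73, 23.01 and 30.63 TPM, overlapping the +dox libraries, and the change of 0.24 (95% interval 0.06 to 0.43) did not pass (adjusted p = 0.0533). Kcnq1 overlaps 12 annotated genes, 4 of them on the opposite strand, and Kcnh2 and Kcnd3 each overlap an antisense gene. How reads were divided between strands is not stated. The plot of changes against +dox shows all 9 genes.

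**Figure D2:**
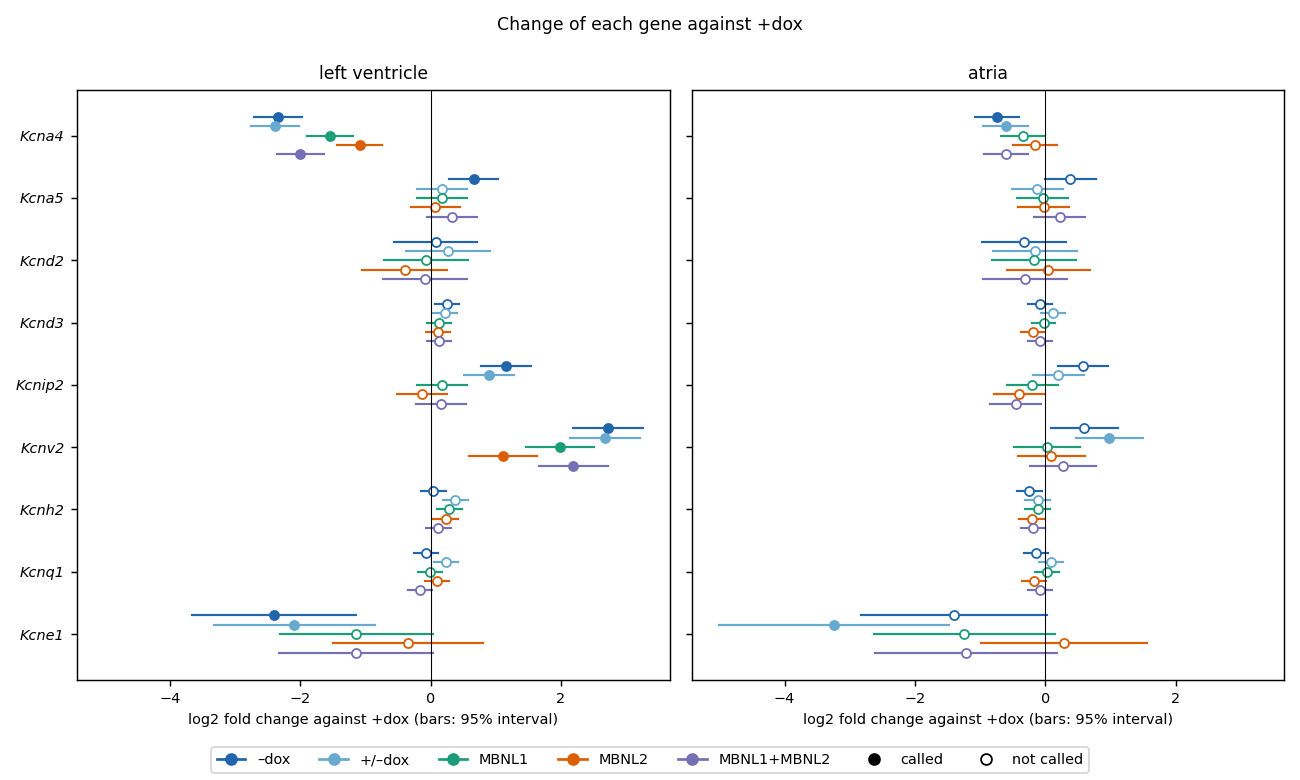
Log2 fold change of each gene against the +dox cohort in the left ventricle and the atria, with 95% intervals. Filled points were called; Kcna4 and Kcnv2 are called in all 5 ventricular comparisons and no gene is called for an MBNL cohort in the atria.

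Whether stopping doxycycline at 9 weeks brought the genes to the –dox level was read from +/–dox against –dox mice. None of the 9 genes was called in either chamber. Of all tested genes 0.0312% were called for the ventricle and 0.0104% for the atria. In the edgeR fit 3 of the 9 were at an unadjusted p under 0.05 in each chamber, beside 1586 (ventricle) and 907 (atria) of the 19231 tested genes, and DESeq2 also called 0 in each. DESeq2 gave ventricular Kcne1 no adjusted p here. In the ventricle the difference was -0.05 for Kcna4 (95% interval -0.43 to 0.34), -0.04 for Kcnv2 (-0.53 to 0.46) and -0.26 for Kcnip2 (-0.64 to 0.12). The ventricular genes at an unadjusted p under 0.05 were Kcna5 (-0.48, interval -0.86 to -0.10), Kcnh2 (0.34, interval 0.14 to 0.53) and Kcnq1 (0.32, interval 0.13 to 0.50), with adjusted p of 0.479, 0.274 and 0.287.

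The next question was what added MBNL did while the repeat RNA stayed on. In the ventricle Kcna4 and Kcnv2 were called in the MBNL1, MBNL2 and MBNL1+MBNL2 cohorts against +dox, and no other of the 9 genes was. That is 2 of 9 in each, beside 2.66%, 1.52% and 2.65% of all tested genes. Kcna4 was at 0.61, 0.81 and 0.80 TPM in the MBNL1, at 0.91, 1.13 and 1.23 TPM in the MBNL2 and at 0.46, 0.52 and 0.66 TPM in the MBNL1+MBNL2 cohort. All lay below the +dox libraries, those of the MBNL2 cohort lay above those of the others, and the MBNL1+MBNL2 libraries overlapped the –dox libraries and lay above the +/–dox libraries. Kcna4 fell 2.91-fold with MBNL1 (log2 change -1.54, SE 0.17, edgeR adjusted p = 1.18e-06), 2.12-fold with MBNL2 (-1.09, SE 0.17, adjusted p = 0.0004) and 3.99-fold with both (-2.0, SE 0.18, adjusted p = 9.18e-09).

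Kcnv2 was at 4.64, 4.55 and 4.51 TPM in the MBNL1, at 2.68, 2.88 and 2.50 TPM in the MBNL2 and at 7.17, 4.73 and 4.18 TPM in the MBNL1+MBNL2 ventricles. The order of the cohorts was that of Kcna4 turned over, with MBNL2 nearest to +dox and the MBNL1 libraries inside the range of the MBNL1+MBNL2 libraries. It rose 3.95-fold with MBNL1 (log2 change 1.98, SE 0.26, edgeR adjusted p = 2.57e-05), 2.15-fold with MBNL2 (1.11, SE 0.25, adjusted p = 0.00961) and 4.55-fold with both (2.18, SE 0.26, adjusted p = 4.15e-06). The MBNL2 call was lost without +dox replicate 1 (0.87, adjusted p = 0.0582). The MBNL1+MBNL2 libraries share their library set with +dox replicate 3, which had the highest +dox level of Kcnv2, 1.77 TPM. Without MBNL1 replicate 1, the library with the fewest gene symbols above 0, the MBNL1 changes were -1.45 for Kcna4 and 1.93 for Kcnv2, and both were called. The MBNL cohorts were not tested against each other. Tissue RNA of the human MBNL cDNAs was not measured apart from the mouse genes: the symbol Mbnl1 was at 56.4 to 68.1 TPM in MBNL1 ventricles and 44.9 to 54.7 TPM in +dox ventricles, and Mbnl2 at 127 to 174 TPM in MBNL2 ventricles and 93.4 to 108 TPM in +dox ventricles.

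Kcnip2, Kcne1 and Kcna5, which separated +dox from –dox ventricles, were not called with MBNL. Kcna5 was at 4.72, 8.09 and 9.11 TPM in the MBNL1 and 8.01, 7.89 and 5.96 TPM in the MBNL2 ventricles. With both it was at 8.07, 10.36 and 6.42 TPM. Libraries of each of these cohorts lay on both sides of the highest +dox library, at 6.51 TPM, and –dox ventricles were at 8.41 to 10.40 TPM. Kcnip2 was at 30.04, 28.86 and 32.80 TPM in the MBNL1, 22.31, 25.85 and 25.20 TPM in the MBNL2 and 34.66, 30.66 and 21.04 TPM in the MBNL1+MBNL2 ventricles, all within or close to the +dox range of 21.21 to 39.51 TPM. Its changes were 0.17 (95% interval -0.21 to 0.55), -0.13 (-0.51 to 0.25) and 0.16 (-0.22 to 0.54). Without +dox replicate 3, the high library of that range, the changes were 0.44, 0.13 and 0.42, with edgeR adjusted p between 0.162 and 0.786. Within the libraries beginning with 53 the change was 0.41 with MBNL1, which passed (adjusted p = 0.00525) short of the fold cutoff, and 0.11 with MBNL2. Kcne1 counts were 22, 30 and 70 with MBNL1, 87, 45 and 80 with MBNL2 and 10, 35 and 64 with both, and the changes of -1.14 (95% interval -2.31 to 0.03), -0.35 (-1.50 to 0.80) and -1.15 (-2.32 to 0.03) did not pass. The MBNL1 change was -2.01 (adjusted p = 0.0507) within the libraries beginning with 53 and -0.84 (adjusted p = 0.463) without MBNL1 replicate 1. Kcnh2 was 1.22-fold higher with MBNL1, which passed the test barely and not the fold cutoff (log2 change 0.29, SE 0.09, adjusted p = 0.0499).

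Set against +/–dox ventricles, where the repeat RNA was switched off, 2, 3 and 1 of the 9 genes were called for MBNL1, MBNL2 and MBNL1+MBNL2 mice, beside 0.868%, 1.57% and 0.53% of all tested genes. Kcnip2 was called in each, being 1.65-fold lower with MBNL1 (edgeR adjusted p = 0.0337), 2.04-fold lower with MBNL2 (adjusted p = 0.00115) and 1.67-fold lower with both (adjusted p = 0.0355). Leaving out any 1 of the 6 libraries ended the MBNL1 call (adjusted p between 0.0523 and 0.122), and leaving out any but MBNL1+MBNL2 replicate 1 ended the call for both (0.097 to 0.237). Within the libraries beginning with 53 the Kcnip2 differences were -0.75 for MBNL1 (adjusted p = 7.5e-05) and -1.05 for MBNL2 (adjusted p = 8.72e-07). Kcna4 was 1.80-fold higher with MBNL1 (log2 difference 0.84, SE 0.18, adjusted p = 0.00998, lost without +/–dox replicate 2 with adjusted p = 0.0666) and 2.46-fold higher with MBNL2 (1.3, SE 0.18, adjusted p = 3.62e-05), while the difference for both was 0.39 (95% interval 0.01 to 0.76, adjusted p = 0.323). Kcnv2 was 2.98-fold lower with MBNL2 (log2 difference -1.57, SE 0.25, adjusted p = 0.000318). Its differences for MBNL1 and for both, -0.70 (interval -1.20 to -0.20) and -0.50 (interval -0.99 to 0.00), did not pass, and both intervals include a level 1.5-fold lower than in +/–dox ventricles. The plot of Kcna4 against Kcnv2 shows the libraries of the cohorts.

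**Figure D3:**
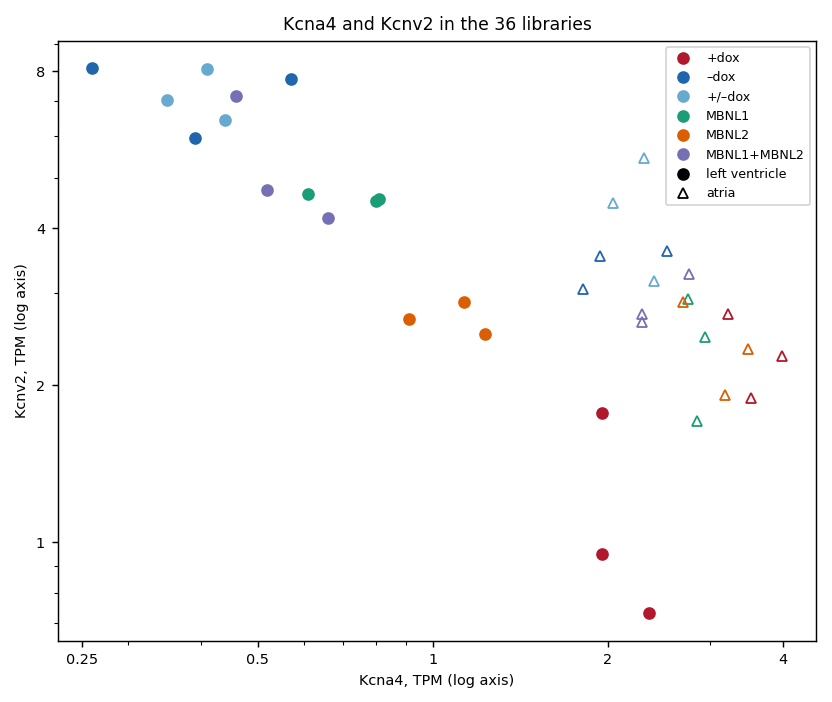
Level of Kcnv2 against that of Kcna4 in each of the 36 libraries, both as TPM on log axes, coloured by cohort. Ventricular libraries (filled circles) run from +dox at the lower right through MBNL2 and MBNL1 to +/–dox and –dox at the upper left, and atrial libraries (triangles) lie together at the right.

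In the atria no gene of the 9 was called in the MBNL1, MBNL2 or MBNL1+MBNL2 cohort against +dox, and few genes of any kind were, 0.13%, 0.0052% and 0.26% of those tested. With edgeR 0, 3 and 2 of the 9 genes were at an unadjusted p under 0.05, beside 1521, 831 and 1924 of the 19231 tested genes, and DESeq2 called 0, 0 and 1, the last being Kcna4 with an adjusted p of 0.0133. For MBNL1 atria DESeq2 gave Kcne1 no adjusted p. Atrial Kcna4 was at 2.85, 2.94 and 2.74 TPM with MBNL1, 2.69, 3.48 and 3.18 TPM with MBNL2 and 2.29, 2.29 and 2.76 TPM with both, against 3.22 to 3.98 TPM in +dox libraries. The MBNL1 and MBNL1+MBNL2 libraries lay below the +dox libraries. The changes were -0.34, -0.16 and -0.60, with edgeR adjusted p of 0.632 for MBNL1 and 0.0968 for both. Atrial Kcnv2 changed by 0.02 (95% interval -0.49 to 0.54), 0.09 (-0.42 to 0.61) and 0.27 (-0.24 to 0.78).

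Against +/–dox atria, 1, 3 and 1 of the 9 genes were called for MBNL1, MBNL2 and MBNL1+MBNL2 mice, beside 1.21%, 3.24% and 1.71% of all tested genes. Kcnv2 was 1.94-fold lower with MBNL1 (edgeR adjusted p = 0.0231) and 1.85-fold lower with MBNL2 (adjusted p = 0.0194). The first call was lost without MBNL1 replicate 1 or 2 or +/–dox replicate 1 or 2 (adjusted p between 0.0585 and 0.15), the second without MBNL2 replicate 2 or 3 or the same +/–dox replicates (0.0628 to 0.117). Kcnip2 was 1.51-fold lower with MBNL2 (adjusted p = 0.0413) and 1.57-fold lower with both (adjusted p = 0.037), and neither call held when any 1 of its 6 libraries was left out (adjusted p between 0.0504 and 0.165). Kcne1 was higher with MBNL2 (log2 difference 3.53, SE 0.86, adjusted p = 0.00619), on 59 counts against 4, a ratio of 12.6 with a 95% counting interval of 4.67 to 47.8. That call was lost without MBNL2 replicate 1 (2.94, adjusted p = 0.055). Kcnd3 and Kcnq1 passed the test as lower with MBNL2, by 0.31 and 0.27 on the log2 scale, without reaching the fold cutoff.

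Ventricle and atria came from the same animals per the study's supplement, which lists a single female in each cohort but MBNL1+MBNL2. With Xist in replicate 3 of both chambers there, replicate 3 comes from the same animal in those 5 cohorts. The other replicates are not tied to animals by the sources, so the chamber and interaction tests treat libraries that share animals as independent. The chambers differed in most of these genes, with 7 of the 9 called between –dox ventricle and atria and 6 of 9 in +dox mice, where 24.9% and 25% of all tested genes were called. In –dox mice Kcnip2 (4.47-fold, edgeR adjusted p = 3.46e-10), Kcna5 (2.79-fold, adjusted p = 1.71e-07) and Kcnv2 (3.11-fold, adjusted p = 4.09e-06) were higher in the ventricle. Kcna4 (3.55-fold, adjusted p = 5.79e-10), Kcnh2 (2.01-fold, adjusted p = 2.36e-10) and Kcnq1 (1.55-fold, adjusted p = 8.45e-07) were higher in the atria. Kcnd3 also passed the test as higher in the –dox atria, without reaching the fold cutoff on normalized counts. Its –dox libraries were at 7.73 to 8.37 TPM in the atria and 4.02 to 4.80 TPM in the ventricle. Kcne1 was 3.36-fold higher in the ventricle (adjusted p = 0.0445) with libraries that overlapped, and the call was lost without any of 5 of the 6 libraries, the difference being 0.85 without ventricular –dox replicate 3 (adjusted p = 0.422). Kcnq1 fell short of the fold cutoff without ventricular –dox replicate 2 (-0.57). Kcnd2 differed by 0.52 (95% interval -0.12 to 1.17) and turned sign, to -0.17, when TPM were compared in place of normalized counts, a scale on which the median gene was at -0.50.

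In +dox mice Kcnip2 (2.99-fold), Kcna5 (2.31-fold) and Kcne1 (6.75-fold) were again higher in the ventricle, and Kcnh2 (2.44-fold), Kcnq1 (1.62-fold) and Kcnd3 (1.58-fold) higher in the atria, with edgeR adjusted p between 1.1e-12 and 0.000453. Kcna4 and Kcnv2 were not among them. Their chamber differences were -0.23 (95% interval -0.57 to 0.11) and -0.48 (-1.0 to 0.03). For Kcnv2 the difference was -0.85 without ventricular +dox replicate 3 and was then called as higher in the atria (adjusted p = 0.00929), whereas in –dox mice it was higher in the ventricle. On log2(TPM + 0.1), where the median gene was at -0.47, Kcna4 (-0.75) and Kcnv2 (-1.01) were both called as lower in the ventricle.

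**Figure D4:**
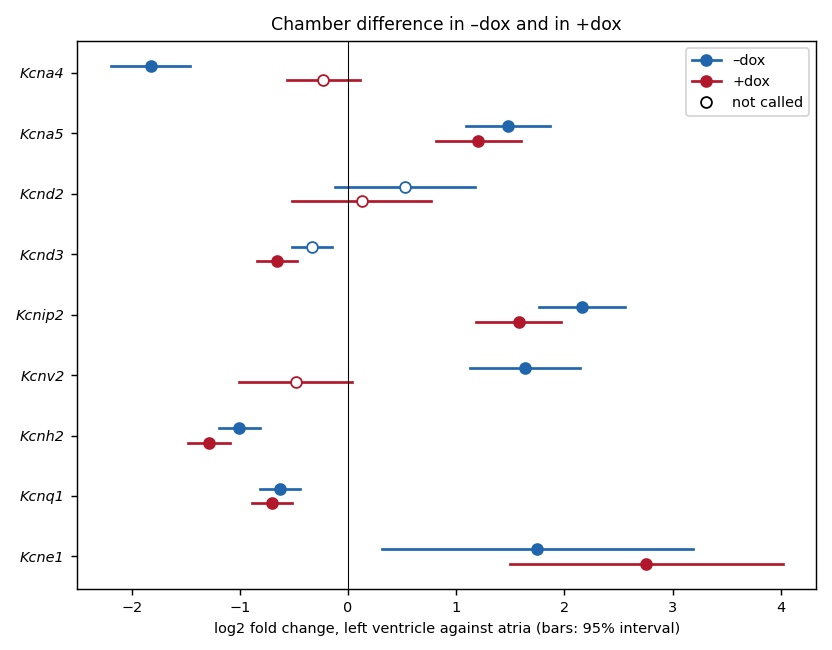
Log2 fold change of the left ventricle against the atria for each gene in the –dox and the +dox cohort, with 95% intervals and filled points where the gene was called. Kcna4 moves from -1.83 in –dox to -0.23 in +dox mice and Kcnv2 from 1.64 to -0.48, while Kcna5, Kcnip2, Kcnh2 and Kcnq1 keep their side.

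The difference between the chambers' responses was tested as an interaction, the log2 change in the ventricle minus that in the atria. Against +dox, 2 of the 9 genes were called for –dox, 2 for +/–dox, 1 for MBNL1, 0 for MBNL2 and 2 for MBNL1+MBNL2 mice, beside 0.764%, 0.489%, 0.0312%, 0.0364% and 0.0728% of all tested genes. The genes were Kcna4 and Kcnv2 in each, and Kcnv2 alone for MBNL1. The Kcnv2 call for MBNL1 was lost with a replicate block, and a call for MBNL1+MBNL2 with the library set as a term. For –dox mice the interaction was -1.60 for Kcna4 (SE 0.24, edgeR adjusted p = 0.000405) and 2.12 for Kcnv2 (SE 0.35, adjusted p = 0.00174). Kcnip2 had an interaction of 0.84 (adjusted p = 0.00102) for –dox and 0.90 (adjusted p = 0.00173) for +/–dox mice within the libraries beginning with 53, and neither was called over all libraries. For MBNL2 mice with edgeR 5 of the 9 genes were at an unadjusted p under 0.05, beside 2114 of the 19231 tested, with Kcna4 at -0.92 (adjusted p = 0.163) and Kcnv2 at 1.01 (adjusted p = 0.269), and DESeq2 called 1, Kcna4 (adjusted p = 0.0155), and gave Kcne1 no adjusted p. With cohort and replicate number as a block across chambers, as if equal numbers marked an animal, the Kcna4 interaction was called for MBNL1 (-1.20, adjusted p = 0.017) and MBNL2 mice (-0.92, adjusted p = 0.0269), and the Kcne1 call between –dox chambers was lost (adjusted p = 0.0888).

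The subunits of a channel were also set against each other within each library, as ratios of TPM. In the ventricle Kcnip2 stood at 2.02 ± 0.162 (SD, n = 3) times the sum of Kcnd2 and Kcnd3 in +dox, at 4.0 ± 1.58 in –dox and at 2.72 ± 0.446 in +/–dox mice. The MBNL1, MBNL2 and MBNL1+MBNL2 ratios were 2.26 ± 0.412, 1.87 ± 0.134 and 2.02 ± 0.344, near the +dox value. In the atria this ratio was 0.645 ± 0.0983 in +dox, 0.955 ± 0.182 in –dox and 0.670 ± 0.101 in +/–dox mice. With MBNL1, MBNL2 and both it was 0.584 ± 0.158, 0.470 ± 0.0491 and 0.515 ± 0.0638 there. Kcna4 to the sum of Kcnd2 and Kcnd3, slow against fast transient outward pore subunits, was 0.168 ± 0.0637 in +dox, 0.0328 ± 0.0202 in –dox and 0.0248 ± 0.00545 in +/–dox ventricles, and 0.0555 ± 0.0169, 0.0833 ± 0.0133 and 0.0400 ± 0.0136 in the MBNL1, MBNL2 and MBNL1+MBNL2 ventricles. In the +dox atria it was 0.165 ± 0.0155, inside the range of the +dox ventricles (0.0951 to 0.214), and the chambers were not tested against each other. Kcne1 to Kcnq1 was 0.0888 ± 0.0454 in +dox and 0.0113 ± 0.0145 in –dox ventricles. Over 40 two-sided exact permutation tests of 3 against 3 libraries, 16 reached the smallest p that the design allows, 0.1, and the smallest adjusted p was 0.25, so no ratio could pass.

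**Figure D5:**
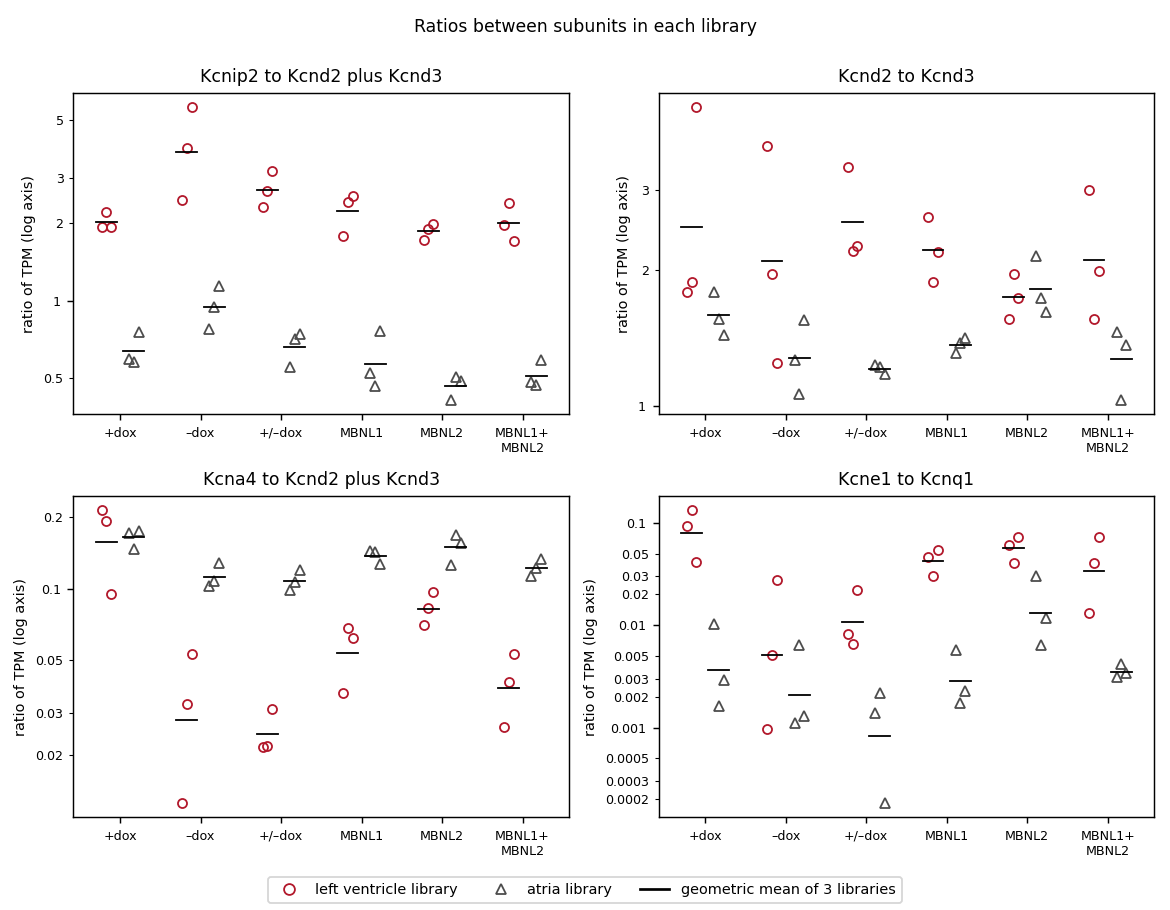
Ratios of TPM between subunits in each library on log axes, by cohort, with lines at the geometric mean of 3 libraries. Ventricular Kcna4 relative to Kcnd2 plus Kcnd3 is lower on average in every other cohort than in +dox (arithmetic mean 0.168), and +dox replicate 3 is the lowest of its group.

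Replicates of the same ventricular cohort varied together across several of the genes. In +dox replicate 3 Kcnd2 was at 16.83 TPM against 7.03 and 6.56 TPM in the other two, Kcnip2 and Kcnv2 were also highest there, and Kcne1 was lowest. Hcn4, the pacemaker channel, was at 6.98, 6.51 and 1.86 TPM in the +dox ventricles, lowest in that same library. In –dox ventricles replicate 3 had the lowest Kcnd2 of the cohort, 5.95 TPM, the highest Kcne1, 26 counts, and the highest Hcn4, 4.15 TPM. Kcnip2 was highest there too, and Kcnv2, at 7.73 TPM, lay between the 5.96 and 8.11 TPM of the other two. Over the 18 ventricular libraries, as deviations from the cohort mean, Pearson's r was -0.86 between Kcnd2 and Kcne1, -0.83 between Kcnd2 and Hcn4, -0.83 between Kcnv2 and Hcn4, 0.76 between Kcnd2 and Kcnv2 and 0.75 between Kcnip2 and Kcnv2. Each pair of values comes from the same library and shares its depth, and what varied between the samples was not tested. The calls for Kcna4, Kcnv2, Kcnip2 and Kcne1 in –dox and +/–dox ventricles held without +dox replicate 3, at log2 changes of -2.43, 3.08, 1.42 and -2.70 for –dox mice.

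Other voltage-gated potassium channel genes were counted for comparison. Of 25 further pore subunits tested (33 listed), 2 were called in –dox and 2 in +/–dox ventricles, beside 7.6% and 6.6% of all tested genes. In the atria 1 was called for –dox and 3 for +/–dox mice, beside 5.23% and 3.99%. Kcna7, which encodes Kv1.7, was at 1.77, 1.86 and 1.80 TPM in +dox and 3.50, 2.99 and 3.59 TPM in –dox ventricles, with no overlap. It rose in –dox (log2 change 0.92, SE 0.11, edgeR adjusted p = 6.04e-07) and +/–dox ventricles (0.73, adjusted p = 2.47e-05) and was called with MBNL1 (0.62, adjusted p = 0.00101) and with both MBNL proteins (0.76, adjusted p = 6.05e-05). Without +dox replicate 3 the MBNL1 change was 0.57, short of the fold cutoff. In MBNL2 ventricles Kcna7 was not called, although its libraries, at 3.27, 2.65 and 2.74 TPM, were also all above those of +dox. They overlapped the MBNL1 libraries, at 2.57, 2.85 and 3.17 TPM. In the atria it was at 4.96, 5.69 and 5.83 TPM in +dox and 5.48, 5.78 and 6.20 TPM in –dox libraries, and the interaction was called (0.81, adjusted p = 0.00555).

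Kcnh6, an ERG relative of Kcnh2, was at 0.75, 0.82 and 0.87 TPM in +dox atria, 0.10, 0.12 and 0.18 TPM in –dox and 0.32, 0.33 and 0.28 TPM in +/–dox atria. It was 5.91-fold lower in –dox atria (log2 change -2.56, SE 0.45, edgeR adjusted p = 0.000137) and 2.61-fold lower in +/–dox atria (adjusted p = 0.0271), while Kcnh2 in the same atria changed by -0.24 for –dox mice (adjusted p = 0.0742). In –dox ventricles Kcnh6 fell by 1.55 on the log2 scale (adjusted p = 0.0295). Kcnc1 fell in +/–dox atria (-1.48, adjusted p = 0.0113), and Kcnc4 rose in +/–dox ventricles (1.63, adjusted p = 0.0301) from at most 0.11 TPM in +dox libraries. Of 10 accessory subunits tested (13 listed), Kcnip3 was the one called against +dox, in –dox (0.70, adjusted p = 0.0399) and +/–dox ventricles (0.89, adjusted p = 0.00836), from 0.60, 1.08 and 0.81 TPM in +dox ventricles. That is 1 of 10 in each, beside 7.6% and 6.6% of all tested genes. Several of these calls rested on single libraries. That of Kcnip3 in –dox ventricles, of Kcnc4, and of Kcnh6 in –dox ventricles and +/–dox atria were each lost when any of 4 of the 6 libraries was left out (adjusted p between 0.0582 and 0.247). Those of Kcnc1 and Kcnip3 in +/–dox mice were lost without 2 and 1 of the 6 (0.0588 to 0.0812), and Cav3 fell short of the fold cutoff without atrial +dox replicate 1 or –dox replicate 3. Of 8 regulators of these channels, Cav3, the muscle caveolin, was called as lower in –dox atria (-0.63, adjusted p = 0.00041). That is 1 of 8, beside 5.23% of all tested genes. Cav3 was not called in +/–dox atria or in –dox or +/–dox ventricles, although there too every library was below those of +dox. It was at 46.5 to 50.1 TPM in +/–dox and 66.8 to 83.7 TPM in +dox atria. In the ventricle it was at 48.5 to 56.8 TPM in –dox and +/–dox libraries and 61.5 to 86.2 TPM in +dox libraries.

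The genes whose pattern over the 36 libraries, centred within a chamber, was most like that of each gene were named as a description, from Pearson's r of log2 CPM among 13260 genes. The points share libraries and cohorts. For Kcna4 they were Ttc27 (0.90), Plekha7 (0.88) and Ccn4 (0.87), and for Kcnv2 Fbxo31 (0.92), Gna12 (0.90) and Rmnd1 (0.87). Kcna4 and Kcnv2 themselves had r = -0.91, with -0.95 in the ventricles and -0.59 in the atria. As deviations from the cohort mean, their r was -0.47 in the ventricles and -0.11 in the atria. For Kcnip2 they were Polg (0.90), Rmnd1 (0.86) and Echs1 (0.86), so that Rmnd1 was near both Kcnv2 and Kcnip2. For Kcne1 they were Igsf3 (0.81), Tmem183a (0.80) and Twsg1 (0.79), and for Kcna5 Adora2a (0.81), Mcf2l (0.78) and Mertk (0.77). For Kcnh2 they were Tsc22d4 (0.84), Ptov1 (0.83) and Btbd2 (0.80). The remaining genes had weaker neighbours, Slc9a2 (0.79), Fgf13 (0.72) and Grb14 (0.71) for Kcnd2, Mfsd4b5 (0.69), Rapgef2 (0.69) and Sertad2 (0.67) for Kcnd3, and Rplp0 (0.75), Thra (0.73) and Opn4 (0.72) for Kcnq1.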

How the data were processed

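Per the study's methods and the submitters' notes, the authors made stranded poly(A) libraries from 250 ng of RNA, read as pairs of 150 bases, aligned them to mm10 with STAR 2.7.10b and quantified GENCODE M25 genes with RSEM 1.3.1. The deposited expected counts are RSEM estimates per gene symbol, not normalized. The deposited TPM are the authors' estimates scaled for transcript length and depth. Strand setting and the handling of shared symbols are not given in the sources used here. The total was 55.03 to 97.09 M expected counts per library, and the lowest chi-square per gene between replicates was 9.61, above sampling noise. Replicates are separate samples per the labels. Both chambers came from the same animals. By sex, replicate 3 is the same animal in both chambers in 5 of the 6 cohorts, and the other replicates are not tied to animals by the sources.

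Rounded counts of all 36 libraries were fitted with edgeR 4.0.16 (R 4.3.3, limma 3.58.1), TMM normalization, filterByExpr, robust quasi-likelihood F-tests and 1 mean for each of 12 groups, with Benjamini-Hochberg adjustment over 19231 genes per comparison. Standard errors and 95% intervals derive from the F statistic. The scripts were tested on simulated data. Counting intervals cover counting error only. Positions and YGCY windows used GENCODE M21 on GRCm38, and promoters RefSeq on GRCm38.p6. Ratios and figures used Python 3.11.15, numpy 2.4.6 and matplotlib 3.10.9. Alternatives were other size factors, no filter, library set as a term or alone, only the groups compared, limma on log2(TPM + 0.1) and log2(TPM + 1), DESeq2 1.42.0, replicate blocks and leaving out each library.

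Named are the 9 genes, other channel genes called in –dox or +/–dox against +dox mice, and for each gene the 3 tested genes with the highest r among those averaging at least 1 CPM. Mbnl1, Mbnl2, Hcn4 and Xist were added as checks. The genes and lists were chosen with earlier results of these data known. A gene that the naming rule covers is not reported here. Reads and splicing were not analysed here.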

Additional observations from a re-analysis of the deposited data

Results flagged for a closer look

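The response of 2 genes differed between the chambers by a test of the interaction, the log2 change against +dox in the ventricle minus that in the atria (edgeR). For Kcna4 it was -1.60 (SE 0.24, adjusted p = 0.000405) in –dox, -1.78 (SE 0.24, adjusted p = 0.000196) in +/–dox and -1.40 (SE 0.24, adjusted p = 0.0106) in MBNL1+MBNL2 mice. For Kcnv2 it was 2.12 (SE 0.35, adjusted p = 0.00174) in –dox, 1.70 (SE 0.35, adjusted p = 0.0212) in +/–dox, 1.96 (SE 0.35, adjusted p = 0.0258) in MBNL1 and 1.92 (SE 0.35, adjusted p = 0.0256) in MBNL1+MBNL2 mice. The –dox calls held whenever any 1 library was left out. The Kcnv2 call for MBNL1 was lost with a replicate block, and a call for MBNL1+MBNL2 mice with the library set as a term. Of the 12 libraries in each test, 4 ended the Kcnv2 call for +/–dox mice when left out (values from 1.46 to 1.59, adjusted p between 0.0611 and 0.0863), 8 that for MBNL1 mice (1.72 to 2.04, adjusted p between 0.0521 and 0.167), and 6 that for MBNL1+MBNL2 mice (1.62 to 1.88, adjusted p between 0.0631 and 0.135), and 4 ended the Kcna4 call for MBNL1+MBNL2 mice (-1.33 to -1.30, adjusted p between 0.0527 and 0.0763). Ventricular +dox replicate 1 was among them in each. All of these interactions share the +dox libraries of both chambers. With 3 libraries per group no library was tested as an outlier.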

How the results depend on the processing

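Over 225 values of the 9 genes in 25 comparisons, 50 were called. Of these, 50 were still called with median-of-ratios size factors and with DESeq2, 48 with the library set as a term, 44 with limma on log2(TPM + 0.1), 42 without a filter on low counts, 38 of 49 with only the groups compared and 34 with limma on log2(TPM + 1). Of those with libraries on both sides, 41 of 44 were still called in the set beginning with 53, and 271 of 342 when a library was left out. The set beginning with 56 (chosen after seeing the data) gave values for MBNL1+MBNL2 mice alone, against 1 +dox or +/–dox library per chamber that is assumed to vary like the MBNL1+MBNL2 libraries, and 2 of 4 calls were made there. No called value turned sign under any of these. The ventricular Kcna4 and Kcnv2 calls for –dox and +/–dox mice held under all but the set beginning with 56, where they were not run. The causes of the losses were not tested. DESeq2 gave no adjusted p for 6 of the 225 values, all of Kcne1.

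Counts of called genes among the 9 moved by more than 1.5 times as follows, with the main count in brackets. Without the fold cutoff they were 2 (1) for –dox atria, 2 (1) for MBNL1+MBNL2 against +/–dox ventricles and 5 (3) for MBNL2 against +/–dox atria. Against +/–dox ventricles the MBNL1 count (2) was 1 without the filter, with only the groups compared and with limma on log2(TPM + 0.1), and 0 on log2(TPM + 1), and the MBNL1+MBNL2 count (1) was 0 in these 4 and, against its single +/–dox library, in the set beginning with 56. Against +/–dox atria the MBNL1 count (1) was 0 without the filter and with only the groups compared, the MBNL2 count (3) was 1 with only the groups compared and on log2(TPM + 1), and the MBNL1+MBNL2 count (1) was 0 without the filter, in the set beginning with 56 and with limma on either scale, and 2 with DESeq2. With only the groups compared, the MBNL2 and MBNL1+MBNL2 counts against +dox ventricles (2 each) were 1, that for –dox atria (1) was 2, and that for MBNL1+MBNL2 atria (0) was 1, as it was with the library set as a term and with DESeq2. On log2(TPM + 1) the counts were 1 for MBNL2 ventricles (2), 0 for –dox atria (1) and 1 for +/–dox atria (3), and DESeq2 gave 2 for –dox atria. Interaction counts were 2 (1) for MBNL1 with median-of-ratios size factors, the library set as a term and DESeq2, and 1 (0) for MBNL2 with DESeq2. For MBNL1+MBNL2 (2) they were 1 without the filter, with the library set as a term and on log2(TPM + 1), for –dox (2) 1 on log2(TPM + 1), and with only the groups compared 1 for +/–dox (2) and 0 for MBNL1 and for MBNL1+MBNL2.

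With 1 library left out the count for –dox ventricles was 4 to 5, for +/–dox ventricles 3 to 4, for MBNL2 ventricles 1 to 2, for –dox atria 1 to 2 and for +/–dox atria 1 to 3. Against +/–dox it was 0 to 1 for MBNL1 and for MBNL1+MBNL2 in both chambers, 3 for MBNL2 ventricles and 1 to 2 for MBNL2 atria. Between chambers it was 5 to 7 in –dox and 6 to 7 in +dox mice, and for interactions 2 in –dox, 1 to 2 in +/–dox, 0 to 2 in MBNL1 and 0 to 2 in MBNL1+MBNL2 mice.

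A replicate block left 48 of the 50 calls. Lost were Kcne1 between –dox chambers (0.71, adjusted p = 0.519) and the Kcnv2 interaction for MBNL1 (1.94, adjusted p = 0.0751), and gained were Kcne1 for MBNL2 against +/–dox ventricles and the Kcna4 interaction for MBNL1. Within a chamber, where each animal gave 1 library, libraries with the same number deviated together with a median r of 0.024 in ventricles and 0.057 in atria, beside -0.013 and -0.025 for unequal numbers. Across chambers of a cohort r was 0.041 to 0.257 for equal and -0.195 to 0.104 for unequal numbers, and a block over these (chosen after seeing the data) gave 2 interactions for MBNL1 (1) and 1 for MBNL2 (0).

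Depth limits Kcne1 most, with 1 to 34 counts per atrial library.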
